A study of Oryza sativa with 8 samples.

Results

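JAZ6 to JAZ12 are 7 rice genes for JAZ proteins, the repressors of the jasmonate hormone pathway, and they were taken by locus identifier from a table of gene expression with 34119 loci. All 7 had a row. They were JAZ6 (LOC_Os03g28940), JAZ7 (LOC_Os07g42370), JAZ8 (LOC_Os09g26780), JAZ9 (LOC_Os03g08310), JAZ10 (LOC_Os03g08330), JAZ11 (LOC_Os03g08320) and JAZ12 (LOC_Os10g25290). The files give no gene names, and all 7 names were found in the RefSeq gene table of assembly ASM3414082v1 on the chromosome that the locus identifier gives.

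RNA was sequenced from seedlings aged 14 days, raised for 7 days on solid and then 7 days in liquid culture, under short days (light for 10 h at 30 °C, darkness for 14 h at 28 °C). The groups were the RNAi line 708Ri-1-1 against SDG708, a SET-domain gene of the family that methylates histone H3, after 3 h in 20% PEG8000 (708RNAi_PEG, n = 3), wild-type, which the series calls NIP, after the same treatment (WT_PEG, n = 2), and the same wild-type without treatment (WT_control, n = 3). PEG is a polymer that draws water out of the roots and so imposes dehydration. Which part of the seedling was frozen is not stated. No untreated RNAi seedlings were analysed here, so a genotype difference that needs PEG and one that does not cannot be told apart. The RNAi libraries all came from the same line, so the knockdown and anything else particular to that line cannot be told apart. The row of SDG708 itself was not analysed here, so the knockdown was not checked. The labels describe no mock handling or harvest hour for the untreated plants, so dehydration, handling and time of day cannot be told apart in the PEG comparison. They do not say that replicates were separate plants or cultures. The p-values thus set group differences only against the spread among these libraries, and that spread may be technical.

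Jasmonates are lipid-derived hormones made after wounding, attack and water loss. The active form, a conjugate of jasmonic acid with isoleucine, joins the receptor COI1 to a JAZ protein, the JAZ protein is degraded, and the MYC2-type transcription factors it held back become active. JAZ genes are themselves transcribed in response to jasmonate, so they serve both as brakes on the pathway and as a commonly used readout of it. JAZ proteins belong to the plant TIFY family. JAZ6, JAZ7 and JAZ8 are TIFY10A, TIFY10B and TIFY10C in the reference, and JAZ9 to JAZ12 are TIFY11A to TIFY11D.

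The authors' values are FPKM, read counts divided by gene length and by a size for each library. The steps between values gave back whole reads, and these came to between 30816795 and 49706048 reads per library. Rows of very low values can come out at 0 reads in this way. Recovered reads were 87.0% to 91.3% of the library size in WT_control, 97.3% to 98.3% in WT_PEG and 101% to 103% in 708RNAi_PEG. The library size was thus not the total of recovered reads, and its relation to that total differed between groups. In 708RNAi_PEG, WT_PEG and WT_control the fewest reads behind any of the 7 genes were 644, 231 and 17, all 3 of them from JAZ9, and the most were 19537, 10215 and 8037, all from JAZ7. Gene lengths behind the FPKM include introns, so levels of different genes depend on intron length, while ratios between groups do not. In whole tissue, a lower value from fewer cells of a type and from less RNA per cell cannot be told apart.

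In every one of the 7 genes each PEG library of the RNAi line lay above each PEG library of wild-type, and each of those lay above each untreated library. Each step by itself was common among all tested genes (at least 1 FPKM in at least 2 libraries). The first was found in 34.0% of them and the second in 42.4%, and how many had both was not counted. Added together, the 7 genes had 1146, 1096 and 1158 RPM (reads per 1000000 recovered reads) in 708RNAi_PEG, 636 and 628 RPM in WT_PEG, and 293, 300 and 307 RPM in WT_control. This sum is taken without any scaling beyond the total of each library, and its groups did not overlap.

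**Figure D1:**
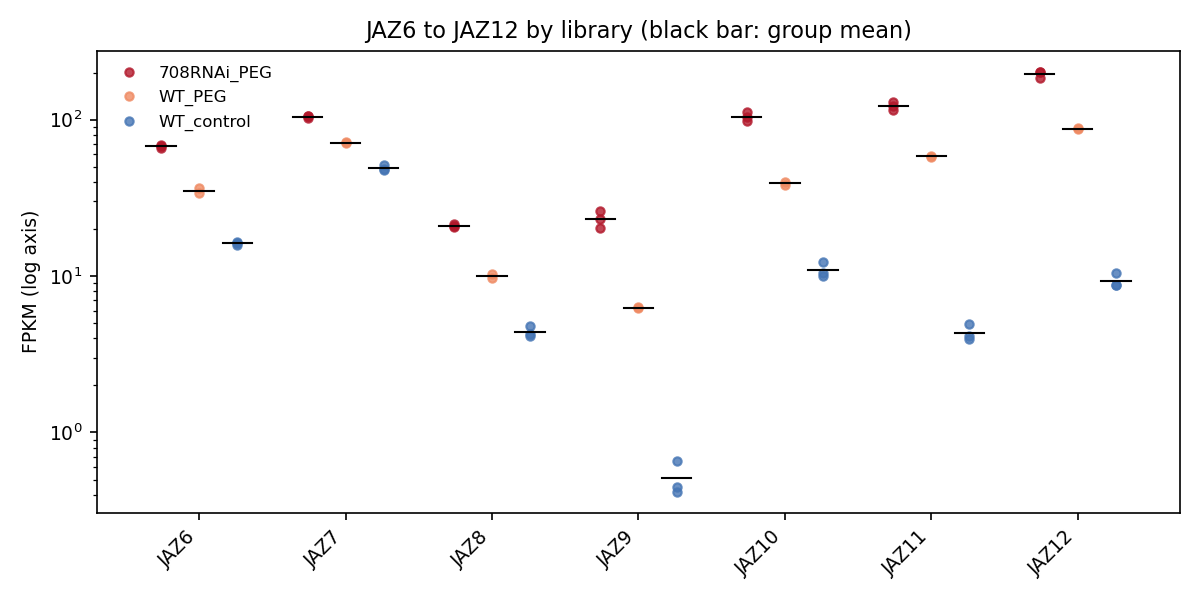
Expression of JAZ6 to JAZ12 in FPKM on a log axis, with a point per library, black bars for group means, and 708RNAi_PEG, WT_PEG and WT_control from left to right within each gene. The groups do not overlap in any gene; the gap between WT_PEG and WT_control is narrow for JAZ7 (71.0 and 49.2 FPKM on average) and wide for JAZ11 (58.3 and 4.34 FPKM).

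The TIFY10 genes were already expressed in untreated seedlings and differed between groups by moderate factors. JAZ6 stood at 67.9, 66.0 and 68.4 FPKM in 708RNAi_PEG, 36.4 and 34.0 FPKM in WT_PEG, and 15.7, 16.2 and 16.6 FPKM in WT_control. The libraries of a group lay close together and each step between groups was many times wider than the spread within them. JAZ7, the gene with the highest untreated level of the 7, had 106, 102 and 106 FPKM in 708RNAi_PEG, 71.4 and 70.6 FPKM in WT_PEG, and 47.7, 48.4 and 51.5 FPKM in WT_control. Its groups stood apart as well, but by less than those of any other of the 7 genes. JAZ8, whose protein has been studied in rice as a COI1-dependent repressor of jasmonate-induced resistance to bacterial blight, had 21.6, 20.6 and 20.8 FPKM in 708RNAi_PEG, 9.68 and 10.2 FPKM in WT_PEG, and 4.11, 4.27 and 4.78 FPKM in WT_control. It was the lowest of the 3 TIFY10 genes in every library, with groups that were again well separated.

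The TIFY11 genes were low or moderate in untreated seedlings, and under PEG they ranged from low (JAZ9) to the highest of the 7 (JAZ12). JAZ9, whose overexpression has been reported to raise tolerance of rice to salt and dehydration, had 23.2, 20.3 and 26.2 FPKM in 708RNAi_PEG, 6.21 and 6.34 FPKM in WT_PEG, and 0.418, 0.451 and 0.658 FPKM in WT_control. The untreated level rested on 17 to 28 reads a library, and the gene passed the filter on low values through its PEG libraries only, so that a difference was built into its being tested. JAZ10 had 104, 98.2 and 111 FPKM in 708RNAi_PEG, 38.5 and 39.9 FPKM in WT_PEG, and 9.96, 10.5 and 12.3 FPKM in WT_control. Its treated RNAi level was close to that of JAZ7, although its untreated level was several times lower. JAZ11 had 123, 116 and 129 FPKM in 708RNAi_PEG, 57.8 and 58.7 FPKM in WT_PEG, and 4.12, 3.94 and 4.96 FPKM in WT_control, which put it among the lowest of the 7 genes without treatment and among the highest with it. JAZ12 had 201, 184 and 202 FPKM in 708RNAi_PEG, 86.5 and 88.9 FPKM in WT_PEG, and 8.74, 8.78 and 10.5 FPKM in WT_control. It held the highest level of the 7 genes in each of the 5 PEG libraries. In all 4 genes, as in the TIFY10 genes, no library of one group reached the range of another, a separation whose single steps were common among all tested genes.

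In 708RNAi_PEG and WT_control the genes moved together from library to library, and in WT_PEG less clearly so. RNAi replicate 2 had the lowest value of its group in 7 of 7 genes and replicate 3 the highest in 6 of 7, while WT_control replicate 3 was the highest of its group in 7 of 7. Of the WT_PEG libraries, replicate 1 was the lower in 5 genes and the higher in 2, JAZ6 and JAZ7. How many of all tested genes had the same orders was not counted, so these orders are not shown to be particular to the 7 genes. Total scaling of the libraries leaves the order of the RNAi libraries and the place of WT_control replicate 3 as they were in the summed reads above. The spread was still small beside the group differences. The coefficient of variation (the SD as a share of the mean) in 708RNAi_PEG lay between 1.84% for JAZ6 and 12.5% for JAZ9, in WT_PEG between 0.822% for JAZ7 and 4.83% for JAZ6, and in WT_control between 2.78% for JAZ6 and 25.6% for JAZ9.

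The first question the design puts is how wild-type seedlings respond to dehydration. All 7 genes rose in WT_PEG against WT_control, with ratios of mean FPKM between 1.44 for JAZ7 and 13.4 for JAZ11. Over all 20943 genes that passed the filter (at least 1 FPKM in at least 2 libraries), 38.6% were called higher and 36.8% lower in this comparison, so a call by itself is common. Of those called, 51.2% were higher, and 41.5% with scaling to total recovered reads. The size of the change was less common: 6 of the 7 genes rose 2-fold or more as log2(FPKM + 1), where 10.4% of all tested genes did. Scaled to total reads 4 of the 7 reached it, as many as with quantile normalization, and without WT_control replicate 1 it was 5. JAZ6 and JAZ8 stood close to the limit. Groups without overlap, found in 7 of 7, occurred in that direction in 42.4% of all tested genes. The median log2 fold change was 1.76 over the 7 genes and 0.017 over all tested genes.

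Both subfamilies rose, and the TIFY11 genes had the greater fold changes. On the log2(FPKM + 1) scale JAZ6 rose by 1.08 ± 0.05 (SE; limma adjusted p = 4.2e-08), JAZ7 by 0.52 ± 0.05 (limma adjusted p = 8.7e-06) and JAZ8 by 1.03 ± 0.06 (limma adjusted p = 2.7e-07). These 3 values lie below that of every TIFY11 gene, and that of JAZ7 was 0.23 with quantile normalization, still called higher. JAZ9 rose by 2.27 ± 0.10 (limma adjusted p = 4.0e-08), JAZ10 by 1.76 ± 0.08 (limma adjusted p = 7.0e-08), JAZ11 by 3.48 ± 0.08 (limma adjusted p = 6.2e-10) and JAZ12 by 3.10 ± 0.08 (limma adjusted p = 1.1e-09). For JAZ9 a rise was built into its being tested, since it passed the filter through its PEG libraries only. The pseudocount holds the value of JAZ9 down, since its mean was 6.28 ± 0.0869 FPKM in WT_PEG (SD, n = 2) and 0.509 ± 0.131 FPKM in WT_control (SD, n = 3), a ratio of 12.3. In the authors' deposited table its log2 fold change is 3.62, and the other 6 genes have values there between 0.53 for JAZ7 and 3.75 for JAZ11. By ratio of means, and in the authors' deposited table, JAZ9 stood before JAZ12 (ratio 9.38). Ranked from the greatest rise on the log2(FPKM + 1) scale downwards among the 20943 tested genes, JAZ11 stood at place 177, JAZ12 at 258, JAZ9 at 552 and JAZ7 at 4241. The difference between the subfamilies was seen in these values and was not tested.

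The second question is how the RNAi line differs from wild-type when both are dehydrated. All 7 genes were higher again, in 708RNAi_PEG against WT_PEG, with ratios of mean FPKM between 1.47 for JAZ7 and 3.70 for JAZ9. Of all tested genes, 21.3% were called higher and 16.4% lower, which is 56.5% higher among those called. That share was 43.9% when the libraries were scaled to total recovered reads, under which all 7 genes kept their calls. A rise of 2-fold or more, again as log2(FPKM + 1), was seen in 5 of the 7 genes and in 1.25% of all tested genes. Scaled to total reads 3 of the 7 reached it, with quantile normalization 2, and JAZ8 and JAZ11 stood close to the limit. Groups without overlap in this direction, again 7 of 7, made up 34.0% of all tested genes. The median log2 fold change was 1.06 over the 7 genes and 0.012 over all tested genes.

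Fold changes in the RNAi line lay closer together than in the PEG response. JAZ9 had the highest at 1.73 ± 0.10 (SE; limma adjusted p = 3.1e-06) and place 75 of 20943. JAZ10 followed at 1.39 ± 0.08 (limma adjusted p = 3.9e-06) and place 116. JAZ12 at 1.15 ± 0.08 (limma adjusted p = 8.4e-06), JAZ11 at 1.06 ± 0.08 (limma adjusted p = 1.4e-05), JAZ8 at 1.00 ± 0.06 (limma adjusted p = 3.5e-06) and JAZ6 at 0.92 ± 0.05 (limma adjusted p = 1.8e-06) formed a narrow band near a doubling. JAZ7 had the lowest at 0.55 ± 0.05 (limma adjusted p = 4.2e-05), as it did in the PEG response. The TIFY11 genes JAZ11 and JAZ12, whose PEG response on this scale was the greatest of the 7, stood beside the TIFY10 gene JAZ8 here. In the authors' deposited table the log2 fold changes of this comparison run from 0.56 for JAZ7 to 1.89 for JAZ9. Because WT_PEG enters both comparisons, once on each side, the fold changes of a gene in the 2 comparisons are not independent of each other.

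**Figure D2:**
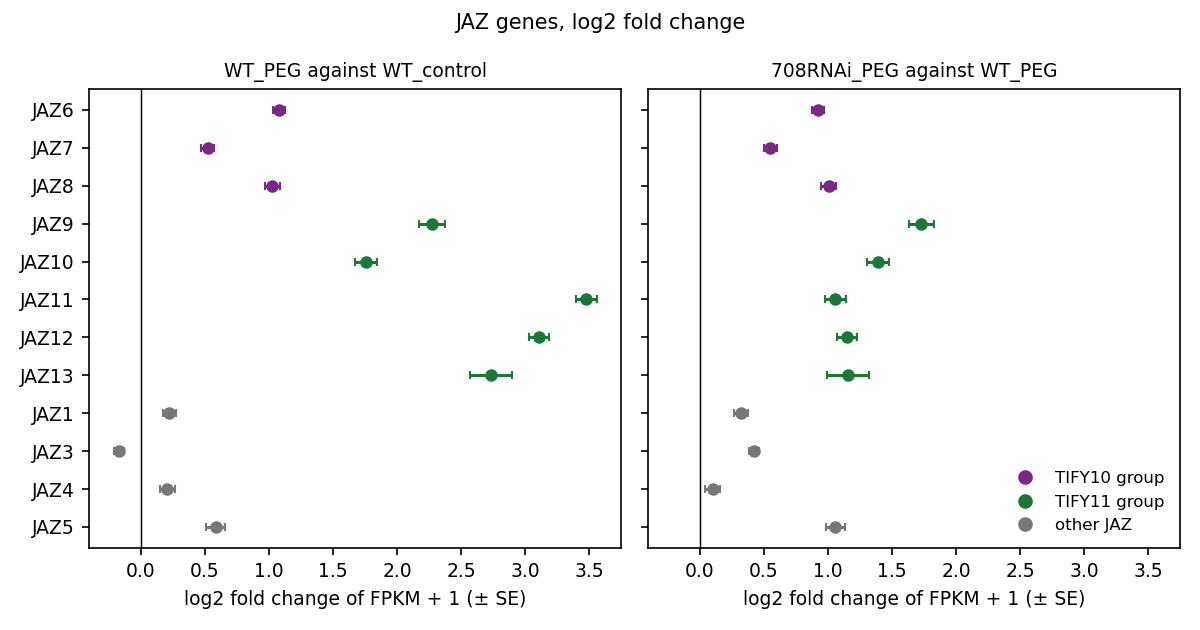
Log2 fold change of FPKM + 1 with its standard error for the 12 tested JAZ genes, WT_PEG against WT_control on the left and 708RNAi_PEG against WT_PEG on the right, coloured by subfamily. On the left the TIFY11 genes lie between 1.76 (JAZ10) and 3.48 (JAZ11), right of the TIFY10 genes (0.52 to 1.08); on the right JAZ11 (1.06) and JAZ8 (1.00) lie beside each other.

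Genotype and treatment both differ between the RNAi line under PEG and untreated wild-type, and this comparison only sets the treated RNAi level beside the untreated one. Ratios of mean FPKM ran from 2.13 for JAZ7 to 45.7 for JAZ9, with 28.2 for JAZ11 and 20.9 for JAZ12. On the log2(FPKM + 1) scale the rises lay between 1.07 for JAZ7 and 4.54 for JAZ11 (highest limma adjusted p of the 7 = 1.6e-08, for JAZ7). All 7 rose 2-fold or more, which 13.4% of all tested genes did, while 41.0% were called higher and 40.0% lower. Groups without overlap in that direction, 7 of 7 here, made up 41.7% of all tested genes.

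**Figure D3:**
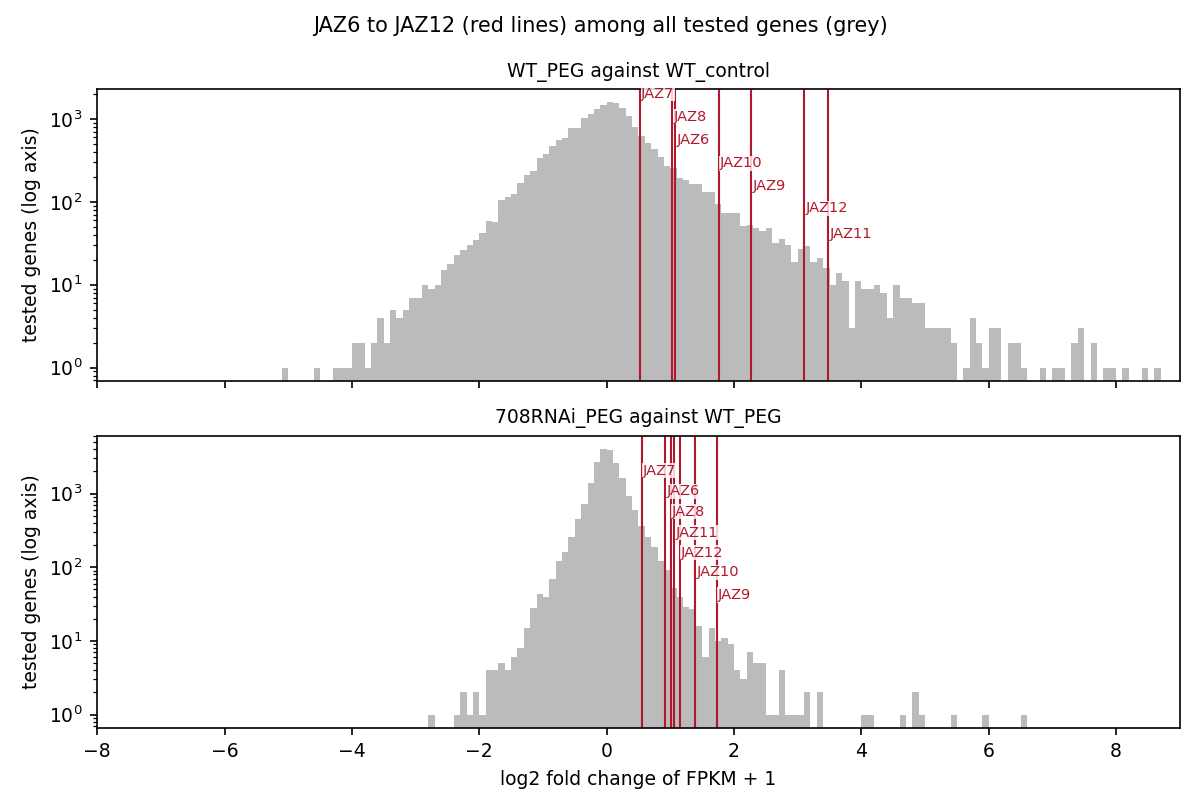
Distribution of log2 fold changes of FPKM + 1 over the 20943 tested genes (grey bars, number of genes on a log axis) with JAZ6 to JAZ12 as red lines, for WT_PEG against WT_control above and 708RNAi_PEG against WT_PEG below. The 7 genes lie right of the centre in both panels, spread from 0.52 to 3.48 above and from 0.55 to 1.73 below.

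The order of the 7 levels differed between groups. In 708RNAi_PEG it ran from JAZ12 through JAZ11, JAZ10, JAZ7, JAZ6 and JAZ9 to JAZ8, where the ranges of JAZ10 and JAZ7 overlapped, as did those of JAZ9 and JAZ8. In WT_PEG it ran JAZ12, JAZ7, JAZ11, JAZ10, JAZ6, JAZ8 and JAZ9, with no overlap between neighbours over the 2 libraries. In WT_control JAZ7 led, before JAZ6, JAZ10, JAZ12, JAZ8, JAZ11 and JAZ9, with overlap between JAZ10 and JAZ12 and between JAZ8 and JAZ11. JAZ7 thus made up 16.4% of the summed FPKM of the 7 genes in 708RNAi_PEG, 23.1% in WT_PEG and 51.9% in WT_control. For JAZ12 the shares were 30.6% in 708RNAi_PEG, 28.5% in WT_PEG and 9.86% in WT_control. Ranks and shares depend on the gene lengths used, and for JAZ7 and JAZ11 the length behind the FPKM was longer than the reference gene, by 69.2% and 15.7%. The ratio of JAZ12 to JAZ7 was higher under PEG than without it whatever lengths are used, since lengths cancel between groups.

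Position along the chromosomes tied several of the genes together. JAZ9, JAZ11 and JAZ10 follow each other on chromosome 3 of the reference with 0 genes between them, and JAZ12 shares a stretch of chromosome 10 with JAZ13 (TIFY11E), with 3 genes between. Neighbouring copies of one subfamily are similar in sequence, and the sources used here do not say how reads that match more than 1 copy were counted, nor whether counting used strand, so the division of reads among the TIFY11 genes is uncertain. The 3 neighbours on chromosome 3 differed in their fold changes under PEG, 2.27 for JAZ9, 3.48 for JAZ11 and 1.76 for JAZ10. Their untreated levels, 0.509, 4.34 and 10.9 FPKM on average, differed as well.

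The genes around the 7 loci changed in both directions. For each gene the 3 nearest tested loci by locus number on either side that are no JAZ gene were taken, 30 different loci in all. JAZ genes next to one another, JAZ13 beside JAZ12 among them, were thus left out of this count and are described with the family. In WT_PEG against WT_control 14 of the 30 were higher, 9 were lower and 1 was at least 2-fold higher, with a median log2 fold change of 0.12. Of all tested genes 38.6% were higher, 36.8% lower and 10.4% at least 2-fold higher there. In 708RNAi_PEG against WT_PEG those shares were 21.3%, 16.4% and 1.25%. Of the 30 loci 5 were higher, 3 were lower and 1 was at least 2-fold higher in that comparison, with a median of 0.0032. The exception was LOC_Os03g28980, the nearest such locus above JAZ6; it and LOC_Os03g08360, described next, were picked out after their values were seen. It had 21.9, 20.7 and 20.1 FPKM in 708RNAi_PEG, 8.60 and 8.25 FPKM in WT_PEG, and 1.16, 1.08 and 1.29 FPKM in WT_control. Its groups did not overlap, and its log2 fold changes of 2.11 ± 0.06 under PEG (SE; limma adjusted p = 1.7e-09) and 1.22 ± 0.06 in the RNAi line (limma adjusted p = 1.0e-06) were both higher than those of JAZ6. Next to JAZ9, JAZ11 and JAZ10, LOC_Os03g08360, the nearest such locus on one side, was instead lower under PEG, with 24.8 ± 1.54 FPKM in WT_PEG (SD, n = 2) and 62.2 ± 2.80 FPKM in WT_control (SD, n = 3), a log2 fold change of -1.29 (limma adjusted p = 4.3e-08).

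**Figure D4:**
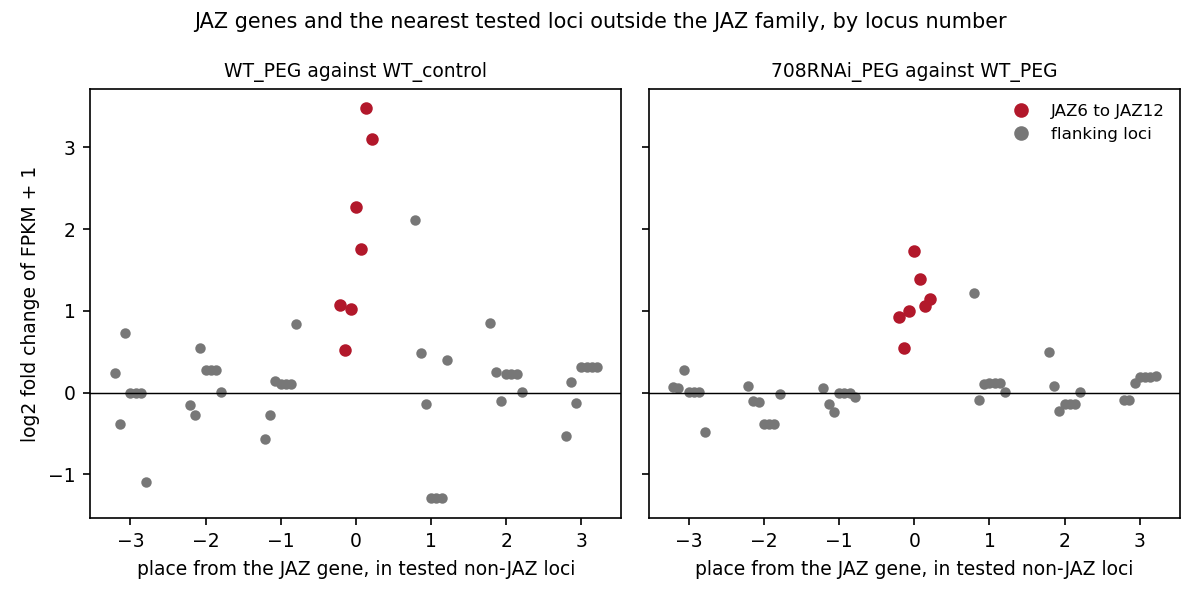
Log2 fold change of FPKM + 1 of JAZ6 to JAZ12 (red, at place 0) and of the 3 nearest tested loci outside the JAZ family on either side of each (grey), against the place in such loci, for WT_PEG against WT_control on the left and 708RNAi_PEG against WT_PEG on the right; small sideways offsets separate genes, and loci around the chromosome 3 cluster are drawn once for each of its 3 genes. Grey points lie on both sides of 0, between -1.29 and 2.11 on the left and between -0.48 and 1.22 on the right, and the highest grey point in both panels is LOC_Os03g28980; JAZ13 is not drawn.

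Among the other JAZ genes the response was unequal. Of 8 listed, 7 had a row and 5 passed the filter. In WT_PEG against WT_control 4 of the 5 were higher and 1 was lower, and in 708RNAi_PEG against WT_PEG 4 were higher and 1 was not called. Of all tested genes, 38.6% were higher in the first comparison and 21.3% in the second. JAZ13, the remaining TIFY11 gene, had 18.8, 15.7 and 24.7 FPKM in 708RNAi_PEG, 7.23 and 9.18 FPKM in WT_PEG, and 0.301, 0.315 and 0.528 FPKM in WT_control. Its groups stood apart like those of JAZ9, with log2 fold changes of 2.73 ± 0.17 under PEG (SE; limma adjusted p = 3.6e-07) and 1.16 ± 0.17 in the RNAi line (limma adjusted p = 6.6e-04), and like JAZ9 it passed the filter through PEG libraries only. JAZ5 (TIFY9) reached 1 FPKM only in the RNAi libraries, with 2.75, 2.58 and 3.14 FPKM in 708RNAi_PEG, 0.882 and 0.786 FPKM in WT_PEG, and 0.251, 0.178 and 0.241 FPKM in WT_control. It was tested because its RNAi values are high, so that this difference was built in. It was 1.06 ± 0.07 higher in the RNAi line (limma adjusted p = 8.0e-06) and 0.58 ± 0.07 higher under PEG (limma adjusted p = 5.5e-05).

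JAZ1 (TIFY3), JAZ3 (TIFY6A) and JAZ4 (TIFY6B), from other branches of the family, moved little. JAZ1, also known in rice from spikelet development, averaged 45.8 ± 0.473 FPKM in 708RNAi_PEG (SD, n = 3), 36.5 ± 1.15 FPKM in WT_PEG (SD, n = 2) and 31.1 ± 1.62 FPKM in WT_control (SD, n = 3). JAZ3 averaged 25.3 ± 0.275 FPKM in 708RNAi_PEG, 18.6 ± 0.244 FPKM in WT_PEG and 21.1 ± 0.269 FPKM in WT_control. It was the 1 tested JAZ gene lower in WT_PEG than in WT_control (log2 fold change -0.17, limma adjusted p = 0.0032), and it was higher in the RNAi line (0.42, limma adjusted p = 5.2e-05). JAZ4 was 0.21 higher under PEG (limma adjusted p = 0.0082) and did not pass in the RNAi line (0.10, limma adjusted p = 0.20). The PEG calls of JAZ1 and JAZ4 were lost with total read scaling and with quantile normalization, where JAZ1 stood at -0.043, and that of JAZ4 also without WT_PEG replicate 2. JAZ2 (TIFY5) stayed under the filter, with 0.171, 0.231 and 0.173 FPKM in 708RNAi_PEG, 0.0352 and 0.0251 FPKM in WT_PEG, and 0.0224, 0.0433 and 0.0429 FPKM in WT_control. That is 15 to 19 reads a library in the RNAi line and 2 to 4 in wild-type, and no test was made.

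Upstream of the JAZ proteins stand the enzymes that make jasmonate. Of 8 listed genes, all of them tested, 3 were higher and 3 lower in WT_PEG against WT_control. That is near the shares of all tested genes, 38.6% higher and 36.8% lower. In 708RNAi_PEG against WT_PEG, where 21.3% of all tested genes were higher and 16.4% lower, 6 were higher and 0 lower. Of these 6 the call of AOC (allene oxide cyclase; 0.20, limma adjusted p = 0.014) was lost with quantile normalization (0.070, limma adjusted p = 0.21) and without WT_PEG replicate 1, WT_PEG replicate 2 or RNAi replicate 1. RCI1, a lipoxygenase gene for the first step, had 71.0, 70.3 and 70.5 FPKM in 708RNAi_PEG, 40.2 and 41.5 FPKM in WT_PEG, and 17.9, 17.3 and 17.7 FPKM in WT_control. Its groups stood apart in the order shown by the JAZ genes, with log2 fold changes of 1.17 under PEG (limma adjusted p = 8.8e-09) and 0.78 in the RNAi line (limma adjusted p = 2.0e-06). HI-LOX, another lipoxygenase gene, was 0.98 higher in the RNAi line (limma adjusted p = 1.3e-05) and 0.40 higher under PEG (limma adjusted p = 7.8e-04). The allene oxide synthase genes of the following step had different calls: AOS1 was higher in the RNAi line (0.68, limma adjusted p = 1.3e-05) and had no call under PEG (0.08, limma adjusted p = 0.16), while AOS2 was higher under PEG (0.88, limma adjusted p = 6.5e-07) and had no call in the RNAi line (0.08, limma adjusted p = 0.35). JAR1 and JAR2, for enzymes that join jasmonic acid to isoleucine, fell under PEG by 0.45 (limma adjusted p = 3.2e-05) and by 0.83 (limma adjusted p = 3.7e-07). In the RNAi line JAR2 was 0.61 higher (limma adjusted p = 2.4e-05) and JAR1 did not pass (-0.02, limma adjusted p = 0.80).

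Receptor and transcription factor genes made up a list of 7, all tested. Under PEG in wild-type 5 of them were higher and 1 lower, beside background shares of 38.6% and 36.8% over the 20943 genes. For 708RNAi_PEG against WT_PEG the counts were 5 higher and 0 lower, beside background shares of 21.3% and 16.4%. That count of 5 fell to 3 with total read scaling and with quantile normalization. The receptor genes changed little: COI1A was 0.36 and COI1B 0.40 higher under PEG (limma adjusted p = 3.8e-05 and 2.9e-05), and COI2 was lower by 0.41 (log2 fold change -0.41, limma adjusted p = 5.1e-04). In the RNAi line COI1A (0.04, limma adjusted p = 0.46) and COI2 (0.08, limma adjusted p = 0.41) did not pass, and COI1B was 0.17 higher (limma adjusted p = 0.018). MYC2, the transcription factor that JAZ proteins hold back, had no PEG call (-0.06, limma adjusted p = 0.27) and was 0.17 higher in the RNAi line (limma adjusted p = 0.021). These small receptor and MYC2 values depend on scaling. With total read scaling and with quantile normalization the RNAi calls of COI1B and MYC2 were lost and MYC2 was lower under PEG (-0.20 and -0.32), and with quantile normalization the PEG call of COI1A was lost as well. Leaving out single libraries also ended calls in the RNAi line. COI1B no longer passed when WT_PEG replicate 1 or RNAi replicates 1 or 3 were left out, each by itself. MYC2 no longer passed without either of the WT_PEG libraries, and without RNAi replicate 2 or 3.

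Transcription factor genes known to be induced by jasmonate changed by more. BHLH148, whose protein binds JAZ proteins in rice and has been linked to drought tolerance, had 21.8, 22.0 and 23.6 FPKM in 708RNAi_PEG, 10.2 and 9.97 FPKM in WT_PEG, and 1.81, 2.07 and 2.16 FPKM in WT_control. JAMYB, a jasmonate-induced MYB gene, had 33.4, 34.2 and 34.9 FPKM in 708RNAi_PEG, 13.7 and 13.5 FPKM in WT_PEG, and 4.10, 3.92 and 4.15 FPKM in WT_control. RERJ1, a jasmonate-responsive bHLH gene, had 7.03, 6.29 and 7.31 FPKM in 708RNAi_PEG, 1.80 and 2.10 FPKM in WT_PEG, and 0.585, 0.484 and 0.470 FPKM in WT_control. None of the 3 had overlapping groups, and the order of the groups was that of the JAZ genes. Each step by itself was common: 42.4% of all tested genes had every WT_PEG library above every WT_control library. In 34.0% every 708RNAi_PEG library lay above every WT_PEG library. The log2 fold changes of the 3 genes under PEG were 1.88 for BHLH148 (limma adjusted p = 5.1e-09), 1.53 for JAMYB (limma adjusted p = 2.2e-09) and 0.96 for RERJ1 (limma adjusted p = 1.9e-06). In the RNAi line they were 1.08 for BHLH148 (limma adjusted p = 2.8e-06), 1.27 for JAMYB (limma adjusted p = 1.5e-07) and 1.42 for RERJ1 (limma adjusted p = 1.8e-06). CYP94C2B, for an enzyme that oxidises the active hormone, had 19.6, 17.4 and 19.9 FPKM in 708RNAi_PEG, 7.26 and 7.83 FPKM in WT_PEG, and 0.519, 0.711 and 0.961 FPKM in WT_control. It rose by 2.31 under PEG (limma adjusted p = 3.8e-08) and was 1.22 higher in the RNAi line (limma adjusted p = 2.5e-05), and it passed the filter through PEG libraries only, as did RERJ1.

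**Figure D5:**
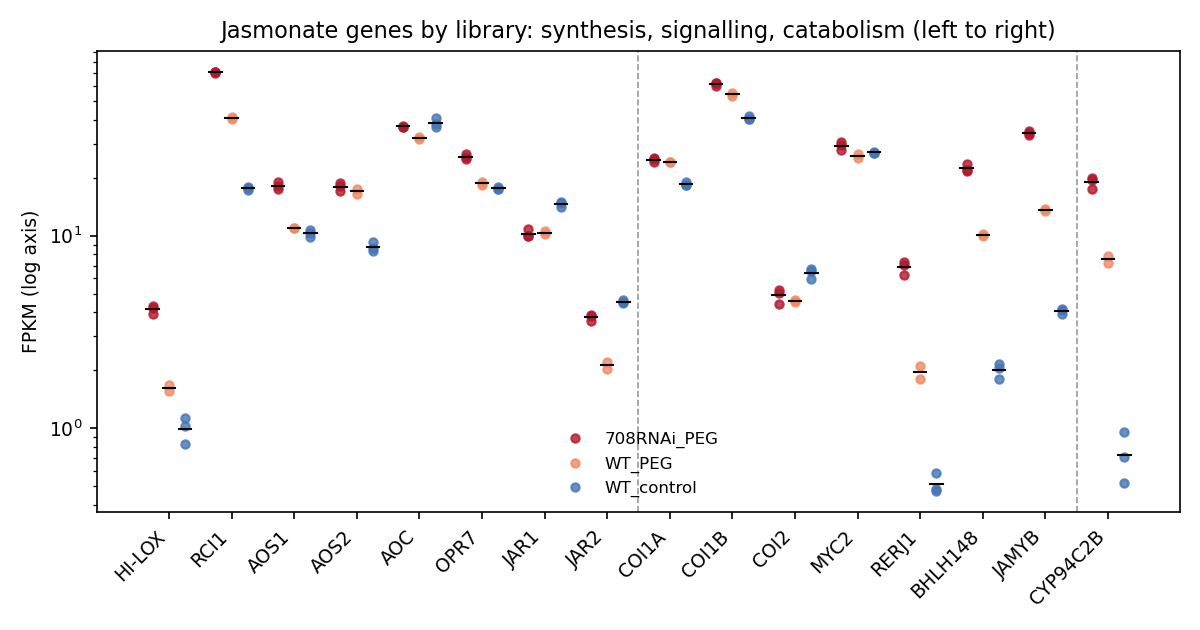
Expression in FPKM on a log axis of 16 genes for jasmonate synthesis, signalling and catabolism (parted by dashed lines), with a point per library, black bars for group means, and 708RNAi_PEG, WT_PEG and WT_control from left to right within each gene. RCI1, BHLH148, JAMYB, RERJ1 and CYP94C2B descend in the 3-group order of the JAZ genes, while MYC2 is nearly level (29.4, 25.9 and 27.1 FPKM on average).

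Many other genes had the same pattern across the libraries. The profiles of the 7 genes, as log2(FPKM + 1) in SD units, were averaged and set beside all 20943 tested genes over the 8 libraries. Pearson's r with this mean profile was above 0.99 for 595 genes, or 2.84% of those tested, and above 0.9 for 25.4%. These counts and the places given below include members of the 7 genes, from which the profile was made. The 8 points fall into 3 groups, so a high r largely says that a gene has the same order of groups. The gene most like the mean profile was LOC_Os04g58810 (r = 0.9997), which no table used here names. Of the listed jasmonate genes RCI1 stood at place 30, BHLH148 at 34, JAMYB at 59 and CYP94C2B at 81. Taken one by one, JAZ6 to JAZ10 had JAMYB as the nearest of the 16 listed jasmonate genes, and JAZ11 and JAZ12 had COI1B.

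Marker genes of tissue moved with the same groups. The summed FPKM of the 7 seedling shoot markers with a row (of 8 listed, genes of photosynthesis) was 5470 to 5742 in 708RNAi_PEG, 6960 to 7454 in WT_PEG and 13784 to 15991 in WT_control. That of the 3 root markers was 50.1 to 53.8 in 708RNAi_PEG, 63.5 to 64.3 in WT_PEG and 422 to 455 in WT_control. Transcripts of both marker sets were thus in every library. Whether these genes are silent in the other organ was not checked. In WT_PEG against WT_control 5 of the 7 shoot markers and 3 of the 3 root markers were lower, and 1 shoot marker was higher. Of all tested genes 36.8% were lower and 38.6% higher in this comparison. In 708RNAi_PEG against WT_PEG 4 of the 7 shoot markers were lower and 1 was higher. Of the 3 root markers 1 was lower there, RCC3, while LSI1 and LSI2 had no call. Among all tested genes 16.4% were lower and 21.3% higher in 708RNAi_PEG than in WT_PEG. The 8 genes for seed storage proteins summed to 33.4 to 38.2 FPKM in 708RNAi_PEG, 2.38 to 4.14 FPKM in WT_PEG and 2.46 to 2.64 FPKM in WT_control. GLUB4 and GLUD1 were listed at 0 in every wild-type library, and GLUA3 in every WT_control library. The 5 seed genes that passed the filter were all higher in 708RNAi_PEG than in WT_PEG, as were 21.3% of all tested genes. None of the 5 seed genes had a call in WT_PEG against WT_control. GLUA1, GLUB5 and GLB passed the filter through the RNAi libraries only, while GLUA2 and RAG2 also reached 1 FPKM in wild-type libraries. The part of these shifts in the JAZ values was not tested.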

How the data were processed

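Per the labels' protocols, polyadenylated RNA was made into stranded libraries. The submitters' processing notes list deepTools, DESeq2, featureCounts, SAMtools, HISAT2, cutadapt and FastQC, with no role or version. Genome build, annotation and the strand setting of the counting are not given in these sources. The authors deposited FPKM per gene and library, group means, and, for 2 comparisons, their own p-value and log2 fold change. From the steps of the FPKM values, whole reads were fitted to 34119 of 34119 rows (tolerance 0.03 reads). The shortest gene length from 50 bp that met this was taken, so a row of very low values meets it with 0 reads. JAZ14, at 0.0063 and 0.0061 FPKM in WT_control replicates 1 and 2, was such a row.

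The 20943 genes that reached 1 FPKM in 2 or more libraries were tested. limma 3.58.1 (R 4.3.3) was fitted to log2(FPKM + 1) over all 8 libraries, with a term per group, a variance trend in eBayes and 5 residual degrees of freedom. Tests were two-sided, and a call is a Benjamini-Hochberg adjusted p under 0.05 over all tested genes. The pseudocount makes fold changes of low genes too small. All replicate pairs differed by more than sampling noise. Groups and replicate numbers came from the sample titles.

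Alternatives were a pseudocount of 0.1, no filter, scaling to total recovered reads, quantile normalization, limma-voom on recovered reads, only the 2 groups compared, a replicate block, and each library left out in turn. The method was tested on simulated data that gave every gene the same dispersion. That test does not cover unequal spread between genes or libraries. Named were all 7 genes and, per list and comparison, at most the 4 called genes with the largest absolute change, plus COI and MYC2 genes. The genes and the lists were chosen with earlier results of these data known. Names were given to locus identifiers from memory; the reference has 33 of the 50 names on the chromosome of the locus, and the other 17 rest on the list alone, among them HI-LOX, RCI1, JAR2, MYC2, RERJ1 and CYP94C2B.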

Additional observations from a re-analysis of the deposited data

How the results depend on the processing

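Each of the 7 genes kept its direction and its call under all 15 alternatives in all 3 comparisons, 105 of 105 fits in each, with a highest limma adjusted p of 0.00032 under PEG in wild-type and of 0.0011 in the RNAi line against wild-type. The count of JAZ genes at least 2-fold higher in 708RNAi_PEG than in WT_PEG, 5 as reported, was 3 with total read scaling, 2 with quantile normalization and 3 with the replicate block; in WT_PEG against WT_control it was 4 rather than 6 with either scaling. Under total read scaling the median over all tested genes shifted (log2) by -0.11 in the PEG response and by -0.16 in 708RNAi_PEG against WT_control, where 38.9% of the calls were higher, against 50.6% as reported. Leaving out each library in turn gave 14242 to 16043 called genes in the PEG response (15778 as reported), 5174 to 9337 in the RNAi comparison (7879 as reported; lowest without WT_PEG replicate 2) and 16258 to 17169 in 708RNAi_PEG against WT_control (16978 as reported). With quantile normalization JAZ1 (-0.043), AOS1 (-0.082) and OPR7 (-0.16, then called lower, limma adjusted p = 0.008) changed sign in the PEG response, AOS1 and OPR7 also with total read scaling, without a call. JAZ7 stood at 0.23 there with quantile normalization, against 0.52, and JAZ9 at 3.65 with limma-voom, against 2.27. Whether the replicate numbers pair the libraries was not settled. Deviations from the group means correlated at -0.12, 0.36 and 0.29 between same-numbered RNAi and untreated libraries. Between RNAi and untreated libraries of different number they correlated at -0.40 to 0.23. Same-numbered pairs with a WT_PEG library lay between -0.23 and 0.25. The block gave 15849, 7714 and 17213 called genes in the 3 comparisons and changed no call of the 7 genes. Depth limits JAZ9 without treatment, at 17 to 28 reads a library, and JAZ2 throughout. With 2 WT_PEG libraries, the spread of that group was taken to be like that of the others. The cause of these dependences was not tested.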
